A study of Mus musculus with 24 samples.

Results

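The 10 genes B2m, Tap1, Tap2, Tapbp, Psmb8, Psmb9, Psmb10, Psme1, Psme2 and Erap1 encode proteins that cut, transport and load peptides for MHC class I molecules. They were taken by name from the gene names of a mouse Agilent array, where they are 10 of 28307 names, and all their 16 probes were examined. RNA came from RAW264.7 cells, a mouse macrophage-like line, that carried a construct for overexpression of either Tbc1d23, a protein of the TBC family of Rab GTPase regulators, or chloramphenicol acetyltransferase (CAT), a bacterial enzyme that served as the control. Cells of each line were exposed to 20 ng/ml lipopolysaccharide (LPS), the bacterial ligand of TLR4, for 1, 3 or 5 h, or left without it (0 h), and the comparison asks how Tbc1d23 affects the response of macrophages to LPS. The groups in order were the Tbc1d23 line at 0, 1, 3 and 5 h and the CAT line at 0, 1, 3 and 5 h, with 3 arrays in each of these 8 groups and 24 arrays in all. Both lines grew in medium with G418, the drug that selects for such constructs. There was 1 line per construct, so a difference between the constructs and a difference between these particular lines cannot be told apart. The design text calls the replicates biological, but nothing says that they were separate cultures, so p-values measure only the spread between these samples.

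MHC class I molecules show peptides of a cell's own proteins to CD8 T cells. The proteasome cuts proteins into peptides, the TAP transporter carries these into the endoplasmic reticulum, aminopeptidases trim them there, and the peptide-loading complex places them on a class I heavy chain bound to beta-2-microglobulin. Interferons raise many genes of this route, among them the catalytic subunits of the immunoproteasome, and macrophages exposed to LPS make type I interferon themselves.

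Of the 10 genes, 5 lie on chromosome 17 in or beside the MHC, and Tap1 and Psmb9 stand head to head there. In GRCm38.p6 Tap1 starts at base 34187556 on the plus strand and Psmb9 at base 34187330 on the minus strand, 226 bases apart, so that the windows from 250 bases before to 50 bases after their starts share 275 of 300 bases. Psmb8 and Tap2 follow on the same side of Tap1 (genes at chr17:34198195-34201454 and chr17:34204479-34216321), while Tapbp lies at chr17:33919478-33929290. Psme1 and Psme2 are neighbours on chromosome 14 (chr14:55578494-55581527 and chr14:55587440-55591101). B2m is on chromosome 2, Erap1 on chromosome 13 and Psmb10 on chromosome 8. The window of Tap1 (chr17:34187306-34187605, plus strand) is shown because it is also most of the window of Psmb9, and these are the members with the largest differences between the lines at 5 h. The other windows shown hold the letters GAAANNGAAA, the core of an interferon-stimulated response element (ISRE-type), which are in capitals: B2m (chr2:122147437-122147736, plus strand), Psme1 (chr14:55578244-55578543, plus strand) and Erap1 (chr13:74639603-74639902, plus strand). All are RefSeq sequences of GRCm38.p6, 5′ to 3′ on the strand of the gene.
Tap1 window: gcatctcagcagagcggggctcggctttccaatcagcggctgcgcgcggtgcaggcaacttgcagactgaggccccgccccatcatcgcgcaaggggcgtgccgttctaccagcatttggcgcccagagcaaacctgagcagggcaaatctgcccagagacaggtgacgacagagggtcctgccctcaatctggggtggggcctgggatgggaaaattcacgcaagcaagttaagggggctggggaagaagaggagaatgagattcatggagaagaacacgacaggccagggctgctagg
B2m window: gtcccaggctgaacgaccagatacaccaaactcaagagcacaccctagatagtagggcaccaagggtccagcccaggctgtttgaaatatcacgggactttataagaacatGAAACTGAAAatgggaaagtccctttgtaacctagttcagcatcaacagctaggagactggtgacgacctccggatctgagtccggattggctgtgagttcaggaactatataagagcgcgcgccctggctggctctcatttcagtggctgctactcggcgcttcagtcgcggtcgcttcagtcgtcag
Psme1 window: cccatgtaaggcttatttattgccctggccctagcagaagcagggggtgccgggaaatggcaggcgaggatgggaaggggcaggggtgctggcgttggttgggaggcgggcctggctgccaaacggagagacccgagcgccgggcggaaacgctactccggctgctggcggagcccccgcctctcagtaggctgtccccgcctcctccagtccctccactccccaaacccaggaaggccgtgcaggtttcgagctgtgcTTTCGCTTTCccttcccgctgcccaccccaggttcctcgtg
Erap1 window: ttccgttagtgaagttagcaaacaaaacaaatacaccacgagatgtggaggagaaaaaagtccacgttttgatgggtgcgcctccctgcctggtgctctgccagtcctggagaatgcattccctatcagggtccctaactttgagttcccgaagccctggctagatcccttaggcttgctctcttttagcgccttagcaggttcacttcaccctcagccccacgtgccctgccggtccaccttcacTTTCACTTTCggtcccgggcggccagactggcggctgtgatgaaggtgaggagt

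Counting the annotated start that a window is built on as 1 and the base before it as -1, the capitals lie at -139 to -130 in B2m, at 10 to 19 in Psme1 and at -4 to 6 in Erap1, and in Psme1 and Erap1 the letters are read on the other strand. The Erap1 window begins at base 74639603, after the start of the gene at base 74639573. Its base 1 is thus a start inside the annotated gene and not the gene's first base. Windows were given for 9 of the 10 genes, with 2 for Psme2, and not for Tap2. On either strand, the ISRE-type letters were in the windows of 3 of these 9 genes and in 3.44% of all 32851 windows of the same length. The letters GGGNNTTNCC (kB-type, after the site of NF-kB) were in the window of B2m, at -126 to -117, and in 4.79% of all windows, and they overlap no other match there. The motif letters were set after the promoter sequences had been seen, and a match is a description of letters, not a site.

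Each level below comes from 1 probe of 60 bases, whose place in the gene decides what it reads. The probes of Tap1 (A_51_P100327, chr17:34330854-34330913, plus strand) and Psmb9 (A_51_P369803, chr17:34319174-34319233, minus strand) are shown because the results turn on them most, with coordinates in mm9 as the deposited files give them.
Tap1 probe: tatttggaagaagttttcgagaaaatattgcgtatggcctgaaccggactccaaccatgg
Psmb9 probe: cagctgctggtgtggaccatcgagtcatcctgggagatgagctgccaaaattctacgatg

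The scanner software marked 42.1 to 69.5% of the probes of an array as well above background, and the number of arrays limits the precision. Levels are given as log2 of a probe's signal over the 75th percentile of its array, called the relative log2 signal here, and one probe's level cannot be set against another's. Of 4 Tbc1d23 probes, the brightest was not called at any time by limma's test: its log2 value in Tbc1d23 minus that in CAT was 0.03 (adjusted p = 0.924) at 0 h, -0.18 (0.537) at 1 h, 0.47 (0.076) at 3 h and -0.20 (0.459) at 5 h. Another gave 0.36 (adjusted p = 0.109) at 0 h, 0.15 (0.519) at 1 h, 0.99 ± 0.18 (SE, n = 3, 0.000117) at 3 h and 0.47 (0.0302) at 5 h. Which part of the Tbc1d23 transcript the construct carries was not stated in the labels, so these probes may not read it. Of 10 macrophage markers 9 were tested, and all 9 were well above background in both lines at 0 and 5 h, their summed signal being 1007 to 1462 times the array's 75th percentile in Tbc1d23 arrays and 1355 to 1433 times in CAT arrays at 0 h. Each slide held 1 line and 1 replicate number at the 4 times. Slides of Tbc1d23 replicates 1 and 2 came from 1 run of serial numbers, and those of Tbc1d23 replicate 3 and of all CAT replicates from another. On the third principal component the 3 Tbc1d23 replicates each stood apart from one another. Replicate 1 lay at -13.4 to 16.6, replicate 2 at -55.6 to -38.2 and replicate 3 at 40.5 to 55.1. The CAT arrays lay at -33.3 to 19.

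At 5 h of LPS the peptide processing genes were low in the Tbc1d23 line: 9 of 10 were called lower than in the CAT line (limma, Benjamini-Hochberg adjusted p under 0.05), with Tap1, a subunit of the TAP transporter, 43.9-fold lower and Psmb9, an immunoproteasome subunit, 16.3-fold lower. With normexp background correction, which adds an offset to every signal, Tap1 was 12.3-fold lower. By 5 h no member was called as changed by LPS in the Tbc1d23 line, with a median log2 change of 0.00, while all 10 rose in the CAT line, with a median of 1.40. Fits that pair the arrays of a slide did call 1 member at 5 h in the Tbc1d23 line, Tap2 lower with the replicate as a block within each line (-0.60, adjusted p = 0.0372) or Tapbp higher with the slide as a random block (0.23, 0.0344). Of all 15298 names, 1208 were called lower with the replicate block and 1150 higher with the random block. The difference had begun before LPS, when 7 members were called lower and 1, Tap2, higher. In a bulk sample, fewer cells that use a gene and less RNA of it per cell cannot be told apart.

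The counts of called members stand against many called genes. At 0 h, 7 members were called lower and 1 higher in the Tbc1d23 line, where 19.9% of all 15298 gene names tested were called lower and 25.2% higher. At 1 h the counts were 6 lower and 1 higher, against 21.8% and 23.6% of all names. At 3 h they were 9 lower and 0 higher, against 23.7% and 27.2%. At 5 h they were 9 lower and 0 higher, against 23.9% and 29.5%. The share called lower among the members was thus above the background at each time. The median log2 difference of the members was -0.47 at 0 h, -0.35 at 1 h, -1.08 at 3 h and -1.78 at 5 h, beside 0.10, 0.03, 0.05 and 0.09 for all names tested. Levels of the 3 arrays in the Tbc1d23 line lay below all 3 in the CAT line for 7 members at 0 h, 7 at 1 h, 9 at 3 h and 10 at 5 h, and above them for 1 at 0 h (Tap2) and 1 at 1 h (Tapbp). Of all names the levels lay apart in the same way, lower in the Tbc1d23 line, for 23% at 0 h, 25.6% at 1 h, 26.2% at 3 h and 27.1% at 5 h, and higher for 28.6% at 0 h and 27.1% at 1 h. The scaling matters for such counts. With each array centred on its median instead, the all-gene median at 0 h moved by -0.56 on the log2 scale. This moves every gene of an array alike, so the members' median minus the all-gene median, -0.56 at 0 h and -1.87 at 5 h, cannot change with it. With quantile normalization these were -0.50 and -1.73. At 3 h the members called lower were 6 with median centring, where 12.5% of all names were, since Tapbp (-0.58, adjusted p = 0.145), Psmb10 (-0.81, 0.105) and Erap1 (-0.59, 0.192) lost the call.

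**Figure D1:**
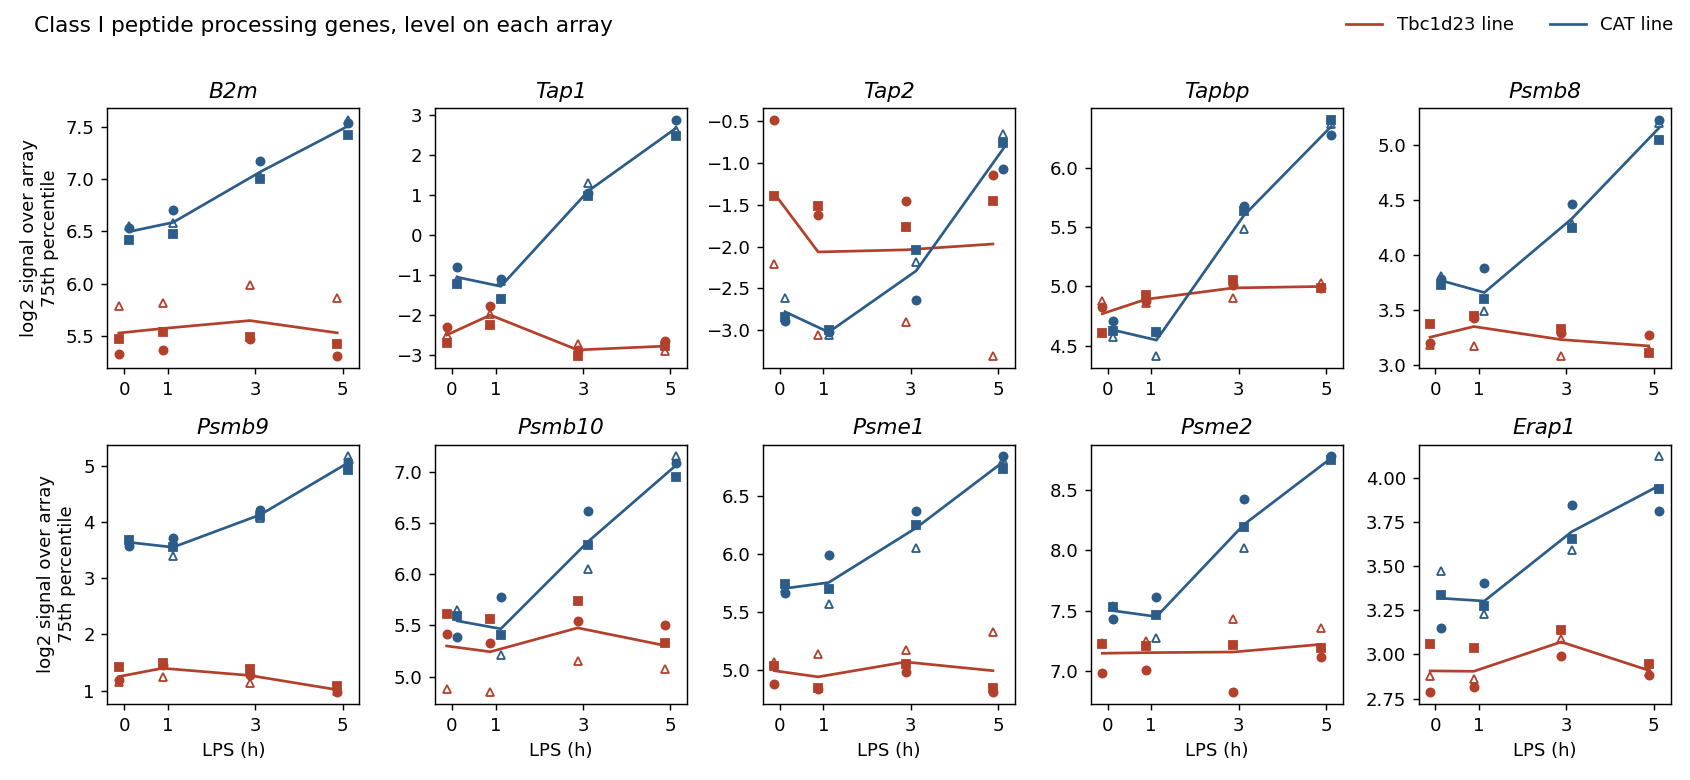
Relative log2 signal (log2 of signal over the array's 75th percentile) of the 10 genes against hours of LPS, with the Tbc1d23 line in red and the CAT line in blue. Lines join group means, circles, squares and open triangles are replicates 1, 2 and 3, and each panel has its own scale. Outside the panels of Tap1 and Tap2 the red means span 0.07 to 0.38 while the blue means climb at 3 and 5 h. Single red points spread more, from 4.85 to 5.73 for Psmb10. In the panel of Tap1 the blue points climb too, while the red means span 0.87 and are highest at 1 h. In the panel of Tap2 the open red triangles lie well below the other red points.

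The immunoproteasome subunits come first in the route. Psmb8, Psmb9 and Psmb10 are the inducible catalytic subunits that take the place of Psmb5, Psmb6 and Psmb7. For Psmb9, the subunit also called LMP2, the relative log2 signal at 0 h was 1.19, 1.41 and 1.15 in the Tbc1d23 line, against 3.56, 3.67 and 3.67 in the CAT line. After 5 h of LPS the Psmb9 values were 0.97, 1.08 and 1.00 in the Tbc1d23 line, against 5.06, 4.92 and 5.16 in the CAT line. The lines lay far apart on every array before LPS and further apart after it. The log2 difference of Psmb9 between the lines came to -2.38, -2.15, -2.86 and -4.03 at 0, 1, 3 and 5 h (± 0.11, SE, n = 3; adjusted p = 2.99e-12, 1.26e-11, 1.51e-13 and 9.16e-16), which is 5.22-, 4.44-, 7.24- and 16.3-fold lower.

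Psmb8, also called LMP7, had a relative log2 signal at 0 h of 3.19, 3.37 and 3.18 in the Tbc1d23 line, against 3.78, 3.72 and 3.81 in the CAT line. At 5 h the Psmb8 values were 3.27, 3.11 and 3.14 in the Tbc1d23 line, against 5.23, 5.04 and 5.20 in the CAT line. The groups did not overlap at either time, and the small gap at 0 h had become a wide one. Its log2 difference was -0.52, -0.31, -1.10 and -1.99 at the 4 times (± 0.11, SE, n = 3; adjusted p = 0.000998, 0.0316, 1.87e-07 and 3.9e-11). Another Psmb8 probe gave -1.02, -0.80, -1.65 and -2.55, each larger and called. The call at 1 h was lost without Tbc1d23 replicate 3 of that time (-0.22, adjusted p = 0.147) or CAT replicate 1 of that time (-0.20, 0.185). It was also lost with each array centred on its median (-0.42, adjusted p = 0.406) and without the whole Tbc1d23 slide of replicate 3 (-0.22, 0.1295).

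Psmb10, also called MECL-1, overlapped between the lines before LPS. Its relative log2 signal at 0 h was 5.41, 5.61 and 4.88 in the Tbc1d23 line, against 5.39, 5.59 and 5.65 in the CAT line. At 5 h the values of Psmb10 were 5.50, 5.33 and 5.08 in the Tbc1d23 line, against 7.08, 6.95 and 7.15 in the CAT line, a clear separation. In the Tbc1d23 line replicate 3 was the lowest at each of the 4 times. The log2 difference was -0.84 ± 0.22 at 3 h (adjusted p = 0.00342) and -1.75 ± 0.22 at 5 h (1.94e-06), with n = 3 per group, and did not pass at 0 h (adjusted p = 0.392) or 1 h (0.437). With the run of slide numbers as a block it passed at 0 h too (-0.59, adjusted p = 0.00687) and at 1 h (-0.56, 0.009). In the Tbc1d23 line that block sets replicate 3 alone against replicates 1 and 2. Without the slide of Tbc1d23 replicate 3 the difference was -0.03 at 0 h (adjusted p = 0.891) and -0.03 at 1 h (0.920).

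Psme1 and Psme2 encode the alpha and beta subunits of PA28, a cap that opens the proteasome and is raised by interferon. For Psme1 the relative log2 signal at 0 h was 4.88, 5.03 and 5.07 in the Tbc1d23 line, against 5.66, 5.74 and 5.71 in the CAT line. At 5 h Psme1 had 4.80, 4.85 and 5.33 in the Tbc1d23 line, against 6.84, 6.74 and 6.82 in the CAT line. Every Tbc1d23 array was below every CAT array at all 4 times. The log2 difference of Psme1 was -0.71, -0.82, -1.16 and -1.81 (± 0.14, SE, n = 3; adjusted p = 0.000369, 9.93e-05, 1.31e-06 and 2.93e-09).

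Psme2 differed little before LPS. Its relative log2 signal at 0 h was 6.99, 7.23 and 7.23 in the Tbc1d23 line, against 7.43, 7.53 and 7.53 in the CAT line. The Psme2 values at 5 h were 7.11, 7.19 and 7.36 in the Tbc1d23 line, against 8.78, 8.75 and 8.76 in the CAT line. The CAT arrays at 5 h lay within 0.03 of each other and above every other array. The log2 difference was -0.35 at 0 h (adjusted p = 0.0492), -0.30 at 1 h (0.0944), -1.05 at 3 h (5.08e-06) and -1.54 at 5 h (3.46e-08), each ± 0.14 (SE, n = 3). The call at 0 h lies at the threshold, and it was lost in most fits without 1 of the 24 arrays, with an adjusted p up to 0.182. Another Psme2 probe gave -0.48 (adjusted p = 0.00168) at 0 h, -0.28 (0.0497) at 1 h, -1.04 at 3 h and -1.75 (1.97e-10) at 5 h.

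Erap1, the aminopeptidase that trims peptides in the endoplasmic reticulum, had the smallest differences at 5 h. Its relative log2 signal at 0 h was 2.78, 3.06 and 2.88 in the Tbc1d23 line, against 3.15, 3.34 and 3.47 in the CAT line. At 5 h Erap1 had 2.89, 2.95 and 2.90 in the Tbc1d23 line, against 3.81, 3.94 and 4.12 in the CAT line. The groups did not overlap at either time. Its log2 difference was -0.41, -0.40, -0.62 and -1.05 at the 4 times (± 0.11, SE, n = 3; adjusted p = 0.00494, 0.00624, 0.000108 and 2.13e-07). A second Erap1 probe, named for another transcript, was not well above background on any array.

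The TAP transporter is a dimer of Tap1 and Tap2, and the array showed these genes in different ways. In the Tbc1d23 line the relative log2 signal of Tap1 was -2.30, -2.72 and -2.51 at 0 h, -1.78, -2.27 and -1.97 at 1 h, -2.88, -3.04 and -2.72 at 3 h and -2.66, -2.79 and -2.91 at 5 h. In the CAT line Tap1 had -0.81, -1.22 and -1.14 at 0 h, -1.10, -1.60 and -1.16 at 1 h, 1.04, 0.97 and 1.30 at 3 h and 2.88, 2.49 and 2.64 at 5 h. The Tbc1d23 arrays were below all CAT arrays of the same time, and their highest values were those at 1 h. Tap1 was well above background on 23 of 24 arrays, the exception being 1 Tbc1d23 array at 0 h. Its log2 difference was -1.45, -0.72, -3.98 and -5.45 at 0, 1, 3 and 5 h (± 0.17, SE, n = 3; adjusted p = 1.23e-06, 0.0018, 8.66e-13 and 6.83e-15), which is 2.73-, 1.65-, 15.8- and 43.9-fold lower. With normexp background correction Tap1 was still called at each time, but the log2 difference was -0.68 at 0 h, -0.42 at 1 h, -2.34 at 3 h and -3.63 ± 0.13 at 5 h (adjusted p = 5.95e-15), or 12.3-fold at 5 h. The call at 1 h was lost with median centring (-0.83, adjusted p = 0.0529) and among the slides of the run with both lines (-0.69, 0.0524). At 3 and 5 h Tap1 had the largest difference of the 10 members, whereas with normexp that of Psmb9 was larger (-2.63 at 3 h and -3.73 at 5 h).

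Tap2 went the other way before LPS, and its Tbc1d23 replicates disagreed. In the Tbc1d23 line its relative log2 signal was -0.49, -1.40 and -2.21 at 0 h, -1.62, -1.52 and -3.06 at 1 h, -1.45, -1.77 and -2.90 at 3 h and -1.15, -1.45 and -3.31 at 5 h. In the CAT line Tap2 had -2.88, -2.84 and -2.62 at 0 h, -3.02, -3.00 and -3.05 at 1 h, -2.64, -2.04 and -2.19 at 3 h and -1.07, -0.76 and -0.66 at 5 h. Tbc1d23 replicate 3 was the lowest of its group at every time, and at 1 h it lay just below the CAT arrays. The log2 difference of Tap2 was 1.41 ± 0.52 at 0 h (SE, n = 3, adjusted p = 0.0345), 0.96 at 1 h (0.146), 0.25 at 3 h (0.720) and -1.14 at 5 h (0.0742). The call at 0 h was lost without any 1 of 5 of the 6 arrays at 0 h, with adjusted p of 0.0570 to 0.176 and differences of 0.97 to 1.49. It was also lost with median centring (0.85, adjusted p = 0.195), and with normexp it was 0.73 (0.00933). At 1 h Tap2 passed without Tbc1d23 replicate 3 (1.45, adjusted p = 0.0349), and at 5 h without Tbc1d23 replicate 1 (-1.55, 0.0289), with median centring (-1.39, 0.0346) and with normexp (-0.62, 0.0211).

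The Tap2 difference depended on how the slides entered the fit. With the run of slide numbers as a block, its log2 difference was 0.40 at 0 h (adjusted p = 0.173), -0.05 at 1 h, -0.76 at 3 h (0.0122) and -2.15 at 5 h (5.82e-07), so the direction at 3 h turned and the call at 0 h was lost. Among the slides of the run with both lines, where Tbc1d23 has only replicate 3, it was 0.56 at 0 h (adjusted p = 0.0834) and -2.48 at 5 h (1.48e-05), and the lone Tbc1d23 array was assumed to vary like the other groups. Without the 4 arrays of the Tbc1d23 replicate 3 slide, it was 1.83 at 0 h (adjusted p = 1.72e-05), 1.45 at 1 h (0.000137), 0.68 at 3 h (0.0230) and -0.47 at 5 h (0.1002). The size of the Tap2 difference thus changed at each time with how the slides were handled. In the Tbc1d23 line only replicate 3 lies in the other run, so run, slide and that replicate cannot be told apart. Its change with LPS at 5 h remained lower in the Tbc1d23 line without that slide, a setting chosen after seeing the data (-2.30, adjusted p = 0.000115).

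Tapbp encodes tapasin, which bridges the TAP transporter and class I molecules in the loading complex. The relative log2 signal of Tapbp at 0 h was 4.82, 4.61 and 4.87 in the Tbc1d23 line, against 4.71, 4.62 and 4.57 in the CAT line. At 5 h it was 4.98, 4.98 and 5.03 in the Tbc1d23 line, against 6.27, 6.40 and 6.37 in the CAT line. The lines overlapped before LPS and lay more than 1 apart after 5 h. Its log2 difference, ± 0.09 (SE, n = 3), was 0.14 at 0 h (adjusted p = 0.231), 0.34 at 1 h (0.00402), -0.61 at 3 h (1.41e-05) and -1.35 at 5 h (3.6e-10). The higher level at 1 h did not appear with another Tapbp probe, which gave -0.08, 0.01, -0.84 and -1.25 at the 4 times, with adjusted p of 0.000904 at 3 h and 1.43e-05 at 5 h. The call at 1 h was also lost with the mean of the probes (0.18, adjusted p = 0.184), median centring (0.24, 0.625), the deposited values (0.20, 0.145), quantile normalization (0.20, 0.131) and among the slides of the run with both lines (0.31, 0.0994).

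B2m encodes beta-2-microglobulin, the light chain of every class I molecule. Its relative log2 signal at 0 h was 5.33, 5.47 and 5.78 in the Tbc1d23 line, against 6.53, 6.41 and 6.55 in the CAT line. At 5 h B2m had 5.31, 5.42 and 5.86 in the Tbc1d23 line, against 7.53, 7.42 and 7.56 in the CAT line. Within the Tbc1d23 line replicate 3 was the highest at every time, yet below all CAT arrays. The log2 difference of B2m was -0.97, -1.01, -1.42 and -1.98 (± 0.16, SE, n = 3; adjusted p = 8.4e-05, 5.4e-05, 7.37e-07 and 7.71e-09). The 3 B2m probes did not give the same size. A probe spotted 10 times, placed further along the same transcript (chr2:121978525-121978581 in mm9), gave -0.13 (adjusted p = 0.448) at 0 h, -0.53 (0.00202) at 3 h and -1.02 ± 0.13 (2.06e-06) at 5 h. A dim probe named for another transcript gave -0.29 at 0 h and -2.48 ± 0.31 at 5 h (2.07e-06). With the mean of the probes, the difference at 1 h was -0.38 (adjusted p = 0.0085).

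**Figure D2:**
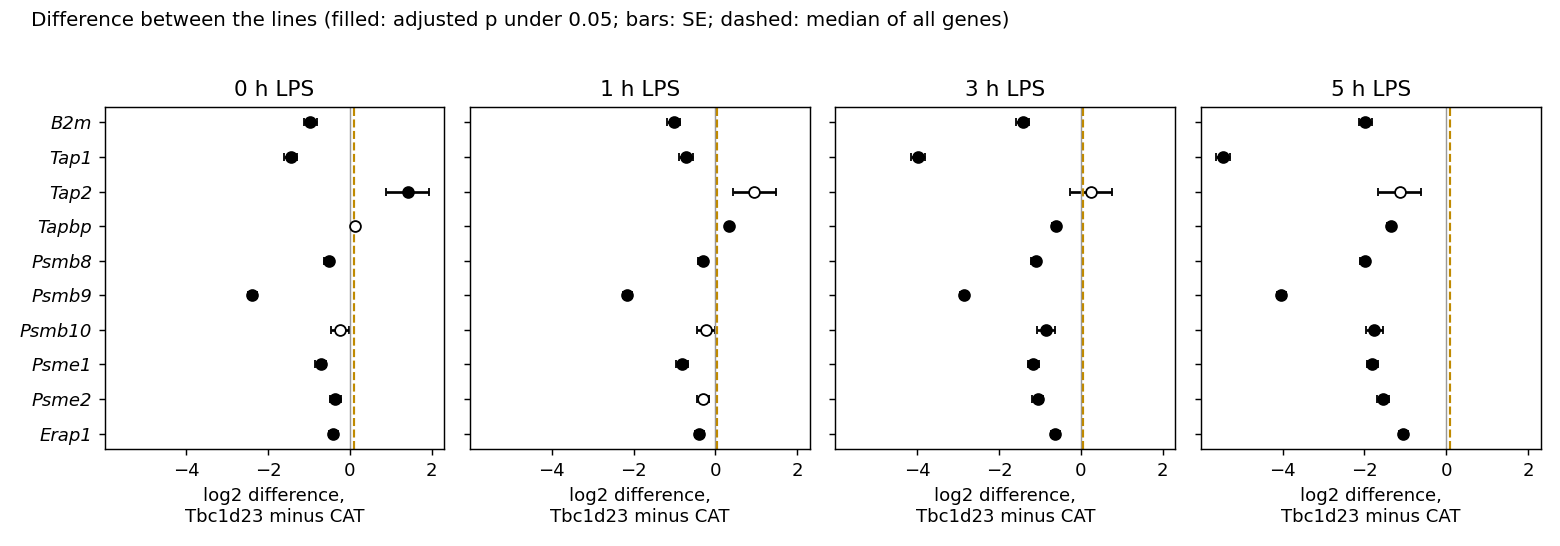
Log2 difference, Tbc1d23 minus CAT, of each gene at 0, 1, 3 and 5 h of LPS, with its SE from limma (3 arrays per group). Filled points passed an adjusted p under 0.05, and the dashed line is the median of all 15298 gene names. Tap1 reaches -5.45 and Psmb9 -4.03 at 5 h, while Tap2 lies above 0 at the first 3 times.

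The response to LPS itself was then compared within each line. In the Tbc1d23 line limma called no member at any time. At 1 h, 0.837% of all names were called higher and 0.797% lower there, at 3 h 3.64% and 2.95%, and at 5 h 3.15% and 2.88%, so the background of calls was itself low. The members' median log2 change was 0.02, 0.05 and 0.00 at 1, 3 and 5 h, beside -0.09, -0.02 and -0.00 for all names. The lowest adjusted p among the members was 0.243, 0.202 and 0.179. With arrays centred on their medians the members' median was 0.59, 0.60 and 0.25 in the Tbc1d23 line, beside 0.48, 0.53 and 0.25 for all names, and again 0 were called. At an unadjusted p under 0.05 there was 1 member at 1 h (Tap1, 0.50), 2 at 3 h (Tap1, -0.37, and Tapbp, 0.22) and 2 at 5 h (Psmb9, -0.24, and Tapbp, 0.23). The means of the 4 times spanned 0.07 to 0.38 for 8 of the members in the Tbc1d23 line, 0.70 for Tap2 and 0.87 for Tap1, against 0.65 to 1.80 for 8 members, 2.19 for Tap2 and 3.96 for Tap1 in the CAT line.

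In the CAT line, 9 members were called higher at 3 h than at 0 h and 10 at 5 h, where 17.2% and 19.6% of all names were called higher, and none was lower, where 17.5% and 21.8% were. The members' median log2 change in the CAT line was 0.57 at 3 h and 1.40 at 5 h, beside 0.01 and 0.05 for all names. Tap1 rose the most, by a log2 of 2.16 at 3 h (adjusted p = 4.69e-09) and 3.73 at 5 h (1.29e-12), or 13.2-fold. With normexp the rise of Tap1 was 1.51 at 3 h (adjusted p = 1.03e-08) and 2.86 at 5 h (2.80e-13), or 7.24-fold. Tap2 rose by 1.95 at 5 h (adjusted p = 0.00499), or 1.05 with normexp (0.000418), but did not pass at 3 h (0.49, 0.579). Tapbp rose by 0.96 at 3 h and 1.71 at 5 h (adjusted p = 1.03e-11).

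In the same CAT line the immunoproteasome subunits rose together at 5 h, Psmb8 by a log2 of 1.39 (adjusted p = 6.42e-09), Psmb9 by 1.41 (2.14e-09) and Psmb10 by 1.51 (1.25e-05). Of the PA28 subunits, Psme1 rose by 1.09 (adjusted p = 2.45e-06) and Psme2 by 1.26 (4.9e-07). B2m rose by 1.01 (adjusted p = 4.42e-05). Erap1 rose least, by 0.64 (adjusted p = 9.26e-05), and its rise at 3 h, 0.38 (0.011), was lost without replicate 1 at 0 h (0.29, 0.0678) or at 3 h (0.30, 0.0633). Psmb10 at 3 h (0.77, adjusted p = 0.00892) was likewise lost without replicate 1 at 3 h (0.63, 0.0552). No rise was called at 1 h: limma called 0 members at 1 h in the CAT line in either direction, and 0 had an unadjusted p under 0.05, where 3.84% of all names were called higher and 3.49% lower. With each array centred on its median 2 members were called higher at 3 h in the CAT line, Tap1 (2.11) and Tapbp (0.92), and 9 at 5 h, all but Erap1 (0.58, adjusted p = 0.264), where 7.83% and 9.48% of all names were.

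Since the 4 times of a replicate share a slide, each slide gives its own response. At 5 h minus 0 h, the 30 values of 10 members on 3 slides ran from -1.09 to 0.38 in the Tbc1d23 line, with 12 above 0, against 0.60 to 3.78 in the CAT line, with 30 above 0. Of the slide values of all names, 49.9% were above 0 in the Tbc1d23 line and 53.5% in the CAT line. For each of the 10 members, every CAT slide lay above every Tbc1d23 slide, as they did for 26.2% of all names. Tap1 changed by -0.36, -0.07 and -0.40 on the Tbc1d23 slides, against 3.69, 3.71 and 3.78 on the CAT slides. Tap2 changed by -0.66, -0.05 and -1.09 on the Tbc1d23 slides, against 1.81, 2.07 and 1.96 on the CAT slides, so its disagreement between the Tbc1d23 replicates in level was smaller in the change. At 3 h minus 0 h the range was -0.96 to 0.44 in the Tbc1d23 line, with 18 of 30 above 0, against 0.12 to 2.43 in the CAT line, with 30 of 30 above 0, beside 48.7% in the Tbc1d23 line and 50.4% in the CAT line over all names. At 1 h Tap1 was 0.45 to 0.53 above its 0 h value on all 3 Tbc1d23 slides, against -0.38 to -0.02 on the CAT slides.

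**Figure D3:**
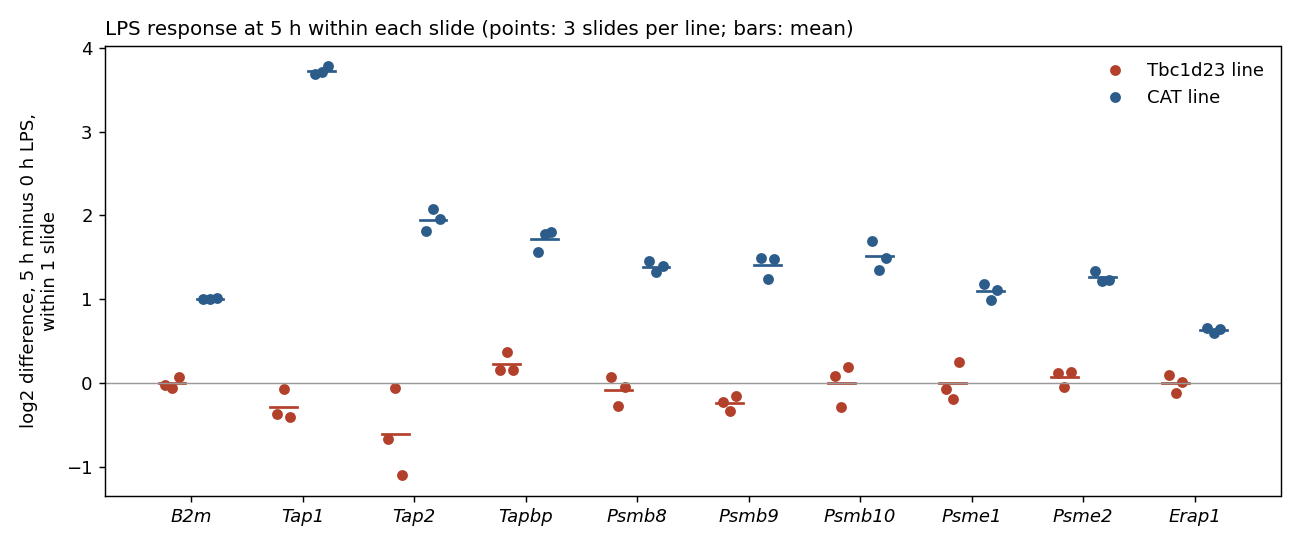
Log2 change of each gene from 0 to 5 h of LPS within a slide, with the Tbc1d23 line (red) left of the CAT line (blue). Each of the 3 points per line is 1 slide and the bar is their mean. All CAT points lie between 0.60 and 3.78 and above all Tbc1d23 points of the same gene.

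The difference between the lines' responses, the interaction in the limma fit, was called lower in Tbc1d23 for 0 members at 1 h, 5 at 3 h and 10 at 5 h, and higher for none at any time. Of all names, 1.8% were called lower and 0.562% higher at 1 h, 8.43% and 8.03% at 3 h, and 10.9% and 12.1% at 5 h. The median of the members was 0.04, -0.59 and -1.48, beside -0.03 at each time for all names. At 1 h the lowest adjusted p was 0.178, and 1 member (Tap1, 0.73) had an unadjusted p under 0.05. At 5 h the difference in log2 response was -4.00 for Tap1 (± 0.24, SE, n = 3 per group; adjusted p = 3.59e-10), a 16.1-fold difference in the change, and -2.94 (1.95e-10), or 7.69-fold, with normexp. At 3 h normexp gave -1.65 for Tap1 (adjusted p = 1.53e-06). It was -2.55 ± 0.74 for Tap2 (adjusted p = 0.0157), where leaving out Tbc1d23 replicate 1 at 0 h gave -2.11 (0.0502), leaving out Tbc1d23 replicate 3 at 5 h -1.88 (0.0426) and normexp -1.35 (0.00229). It was -1.48 for Tapbp (adjusted p = 4.17e-08).

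For the proteasome genes the interaction at 5 h was -1.47 for Psmb8 (adjusted p = 1.01e-06), -1.64 for Psmb9 (1.08e-07), -1.51 for Psmb10 (0.00112), -1.09 for Psme1 (0.000313) and -1.19 for Psme2 (0.000162). B2m had -1.01 (adjusted p = 0.0028), and its 10-spot probe gave -0.89 (0.00105). Erap1 had the smallest, -0.63 ± 0.16 (adjusted p = 0.00493). All 10 values are negative. At 3 h the members called were Tap1 (-2.53, adjusted p = 2.6e-07), Tapbp (-0.75, 0.000246), Psmb8 (-0.58, 0.015), Psme2 (-0.70, 0.0191) and Psmb9 (-0.47, 0.0372). Psmb9 lost the call at 3 h without any 1 of 8 arrays (adjusted p = 0.0545 to 0.102), and Psme2 lost it without replicate 1 at 3 h of Tbc1d23 (-0.53, 0.0567) or of CAT (-0.60, 0.0552). The count of 5 thus dropped to 3 without either of these last arrays.

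The interaction depends on the scaling for most members. With each array centred on its median, a value near background on these arrays, the all-gene median of the interaction moved by 0.59 at 3 h and 0.31 at 5 h. The members called lower were then 1 at 3 h (Tap1, -1.94, adjusted p = 0.00444) and 2 at 5 h (Tap1, -3.69, 1.08e-06, and Tap2, -2.24, 0.0442), where 2.49% and 3.82% of all names were called lower. At 3 h Psmb8 (0.0064) and Psmb9 (0.12), both called lower before, turned in sign. So did B2m (0.14), Psme1 (0.14) and Erap1 (0.38), which had not been called. All 10 values at 5 h stayed negative, from -3.69 to -0.32, with wider errors, 0.41 against 0.13 for Tapbp. Relative to the all-gene median, which this centring cannot alter, the members' median was -0.56 at 3 h and -1.45 at 5 h. With quantile normalization it was -0.60 and -1.35, and 10 members were called lower at 5 h, where 9.72% of all names were.

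The slide pairs the times within a line, so a fit with the replicate as a block within each line was also made. With this replicate block, 9 members were called at 3 h in the interaction, all but Erap1, with adjusted p of 0.000543 for B2m, 0.022 for Psme1, 0.0358 for Psmb10 and 0.00301 for Tap2, where 15.1% of all names were called lower. At 1 h, Tap1 was called higher in the Tbc1d23 line (0.50, adjusted p = 0.0221) and in the interaction (0.73, 0.0134), and at 3 h it was called lower in the Tbc1d23 line (-0.37, 0.0376). Tap2 was called lower at 1, 3 and 5 h in the Tbc1d23 line (-0.70, -0.67 and -0.60, adjusted p = 0.0432, 0.0201 and 0.0372) and higher at 3 h in the CAT line (0.49, 0.0377). With the block, then, TAP genes of the Tbc1d23 line were called, lower for both at 3 h, while the other 8 members were still not called there. Of all 15298 names this block called 225 higher and 486 lower at 1 h in the Tbc1d23 line. It called 1255 and 1312 at 3 h and 1154 and 1208 at 5 h, so the few member calls at these times do not stand out. With the slide as a random block instead, Tapbp was called higher at 3 h (0.22, adjusted p = 0.0432) and 5 h (0.23, 0.0344) in the Tbc1d23 line. Of all names, 1226 and 1150 were called higher there at these times. With the run of slide numbers as a block 9 members were called lower in the interaction at 3 h, where 11.2% of all names were, and among the slides of the run with arrays of both lines 3 were, against 6.48%.

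Markers of other cell types moved with the lines as well. Of 6 dendritic cell markers 4 were tested, and their summed signal was 0.501 to 0.929 times the array's 75th percentile in the Tbc1d23 line at 0 h, against 1.60 to 2.13 times in the CAT line, and 0.934 to 1.25 times in the Tbc1d23 line against 5.94 to 7.31 times in the CAT line at 5 h. Itgax, an integrin that activated macrophages also carry, was the one called at 5 h (-3.55), and Clec9a and Siglech were not well above background on all 3 arrays of any group. Of 8 T and NK cell markers 3 were tested, at 3.90 to 4.01 in the Tbc1d23 line against 1.75 to 1.83 in the CAT line at 5 h, and Cd3d, Cd3g, Cd8a, Ncr1 and Klrb1c were not well above background on all 3 arrays of any group. Cd5 was called higher (2.62) and Cd3e (-1.81) and Lck (-0.59) lower, so the sum and the list's median of -0.59 differ in sign. Of 6 B cell markers 3 were tested, at 0.878 to 1.37 in the Tbc1d23 line against 0.184 to 0.539 in the CAT line at 5 h, with Vpreb1 called higher (4.34) and Cd79b lower (-2.04). Of 8 granulocyte and erythroid markers 4 were tested, at 0.456 to 0.659 in the Tbc1d23 line against 0.300 to 0.443 in the CAT line at 5 h, and 0 were called. Of 8 fibroblast and epithelial markers 3 were tested, at 0.178 to 0.211 in the Tbc1d23 line against 1.103 to 1.283 in the CAT line at 5 h. The macrophage markers summed to 1164 to 1763 in the Tbc1d23 line, against 1992 to 2156 in the CAT line, at 5 h, and 5 of 9 were called lower. The part of these cell type markers in the result was not tested.

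The members stand within a longer route, and its other genes did not all share their pattern. Of the classical class I heavy chains, 2 of 3 were tested, H2-D1 and H2-K1, and both were called lower in the Tbc1d23 line at 0 h and at 5 h (-1.42 and -0.98, list median -1.20). By 5 h of LPS 0 of 2 were called in the Tbc1d23 line, both rose in the CAT line, and the difference between the responses was called lower for 1 of 2 (median -0.66). Of 11 other class I heavy chains tested, 2 were lower and 4 higher at 0 h and 7 were lower and 3 higher at 5 h, with a median of -1.09. Their responses by 5 h were called lower for 6 and higher for 1 in the interaction (median -0.87). H2-T24 was lower at 5 h (-1.92), though well above background on 2 of 3 arrays in the Tbc1d23 line, whereas H2-M3 was higher (2.47). Cd1d1, which presents lipids, was at least 17.3-fold higher in the Tbc1d23 line at 5 h, being not well above background on any CAT array there. Class I heavy chains share much sequence, so a probe may read more than 1 of them and their single values are uncertain.

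The constitutive proteasome had smaller median differences. Its catalytic subunits Psmb5, Psmb6 and Psmb7, the counterparts of the 3 inducible members, had log2 differences at 5 h of -0.31 (adjusted p = 0.021), -0.32 (0.0992) and -0.90 (4.06e-05), with 1 of 3 called lower at 0 h and 2 at 5 h. By 5 h 0 of 3 were called in the Tbc1d23 line and all 3 rose in the CAT line (0.67, 0.76 and 0.61), with 1 of 3 called lower in the interaction (median -0.48). Of 11 other subunits of the 20S core, 4 were higher at 0 h and 4 lower at 5 h (median -0.24), among them Psma4 (-1.02), Psma6 (-0.48) and Psma3 (-0.43). In the Tbc1d23 line 0 of these 11 were called by 5 h, and in the CAT line 8 rose, while the interaction was called lower for 4 (median -0.43). Of 17 subunits of the 19S cap, 5 were higher and 1 lower at 0 h, and 1 was higher and 6 were lower at 5 h (median -0.21), with Psmd13 at -0.88, Psmd8 at -0.63 and Psmd3 at 0.74. Of the 17, 0 were called by 5 h in the Tbc1d23 line, and 12 rose in the CAT line, with the interaction called lower for 3 (median -0.36). Of 8 other activators, assembly factors and an inhibitor, 0 were called at 0 h and 2 at 5 h, Psmg1 (-0.29) and Psmg2 (0.28), with 0 changed by 5 h of LPS in the Tbc1d23 line, 1 higher and 1 lower in the CAT line, and 0 called in the interaction (median -0.12).

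Chaperones and peptidases had medians above 0, the opposite direction from the members. Of 9 chaperones and folding enzymes of the loading route, 5 were higher and 1 lower in the Tbc1d23 line at 0 h, and again 5 and 1 at 5 h (median 0.42). Pdia4 (1.40) and Hsp90b1 (1.34) were higher at 5 h, while Tapbpl, a relative of tapasin that also edits peptides, was lower (-1.81). By 5 h 0 of the 9 were called in the Tbc1d23 line and 2 rose in the CAT line, and the interaction was called lower for 2 (median -0.06). Of 8 other peptidases of antigen processing, 5 were higher at 0 h and 4 at 5 h, with none lower and a median of 0.54, and Lnpep (1.11), Blmh (0.86) and Tpp2 (0.77) led. By 5 h 0 of these were called in the Tbc1d23 line, 2 rose and 1 fell in the CAT line, and 2 were called lower in the interaction (median -0.09).

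Among the related lists, the regulators of the route had the median nearest to that of the members at 5 h. Of 16 interferon and class I regulators 15 were tested, since Nlrc5, a transactivator of class I genes, is not among the gene names on the array. At 0 h 8 were lower and 3 higher in the Tbc1d23 line, and at 5 h 12 were lower and 1 higher, with a median of -1.60. Irf7 (-4.54), Irf1 (-4.19) and Ifnb1 (-3.83) were the lowest at 5 h, Irf1 and Irf7 being transcription factors of the interferon response and Ifnb1 its type I ligand. In the Tbc1d23 line 4 of the 15 rose by 5 h, while the changes of Irf7 (-0.01) and Irf1 (-0.46, adjusted p = 0.188) were not called. In the CAT line 11 of the 15 rose and 2 fell, Irf7 rising by 3.87 and Irf1 by 2.82. The interaction at 5 h was called lower for 8 of the 15 and higher for 3, with a median of -1.32, beside 10 of 10 lower and -1.48 for the members. Ifnb1 was at least 5.97-fold higher at 5 h than at 0 h in the Tbc1d23 line and at least 118-fold higher in the CAT line, a bound in both since no array at 0 h was well above background. Of 12 genes of class II presentation 8 were tested, with 3 lower and 3 higher at 0 h, 4 lower and 1 higher at 5 h and a median of -0.71. H2-DMb1 was lower at 5 h (-2.96, well above background on 1 of 3 arrays in the Tbc1d23 line), as was Ctss (-1.41), a protease of the class II route, and H2-Oa was higher (2.90). By 5 h 0 of the class II genes were called in the Tbc1d23 line, 1 rose and 2 fell in the CAT line, and 1 of 8 was called lower in the interaction (median -0.13).

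Centring each array on its median lowers every log2 difference between the lines by 0.56 at 0 h and by 0.24 at 5 h. The medians at 0 h of the other 20S subunits (0.32), the 19S subunits (0.16) and the other activators (0.14) then turn below 0, while those of the chaperones (1.06) and peptidases (0.71) stay above it, as they do at 5 h.

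**Figure D4:**
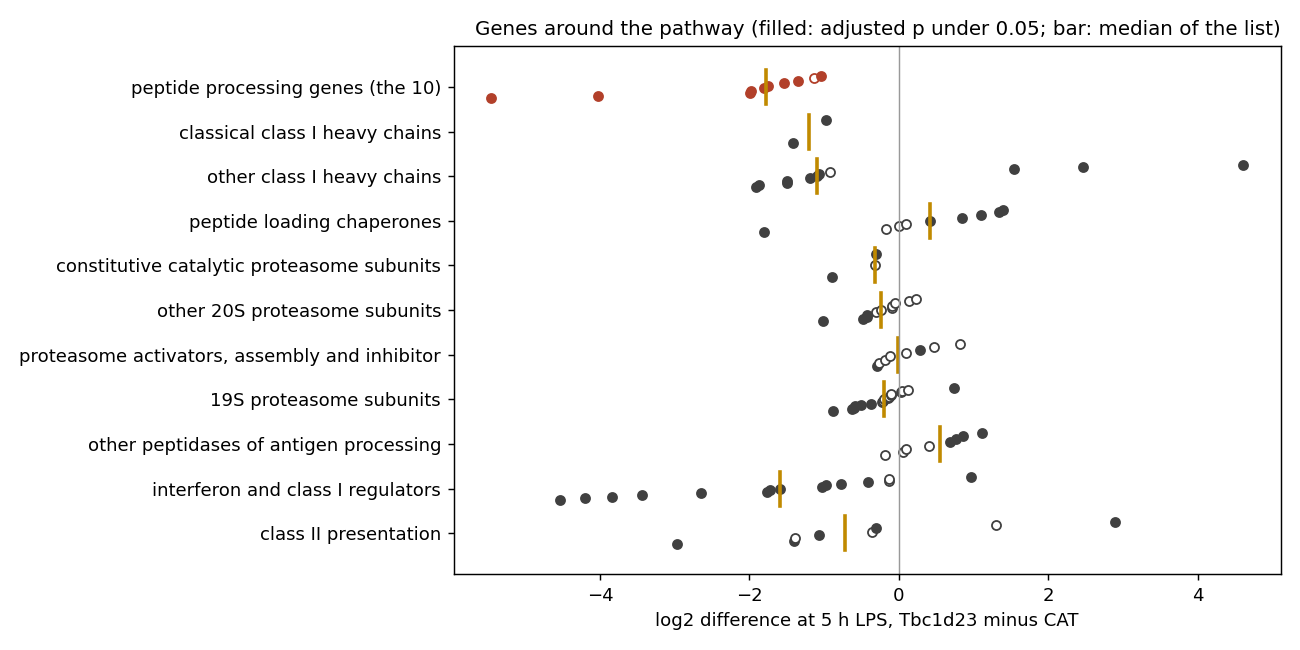
Log2 difference, Tbc1d23 minus CAT, at 5 h of LPS for each gene tested in the 10 peptide processing genes (red, top row) and in 10 lists of related genes (dark). Filled points passed an adjusted p under 0.05 and the bar is the median of the list. The 10 genes and the interferon regulators have the lowest medians, at -1.78 and -1.60, and the chaperones and other peptidases have medians above 0.

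Likeness to the members was measured by Pearson's r over the 8 group means, among 1316 genes well above background on all 24 arrays whose group means span at least a log2 of 2. The genes most like the mean centred profile of the members were Il18 (0.994), Fam241a (0.989), Fbxl18 (0.988), Magohb (0.988) and Ifi202b (0.988). The 8 means come from only 2 lines and 4 times, so these r values are a description. The members themselves, whose own values form that profile, had r of 0.998 for Psmb8, 0.994 for Psme2, 0.992 for Tap1, 0.979 for Psme1 and for Erap1, 0.977 for Psmb10, 0.955 for B2m, 0.917 for Psmb9 and 0.846 for Tapbp. Tap2, at 0.353, was the member least like the rest.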

How the data were processed

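RNA of 24 samples was labelled with Cy3 and hybridised to 1-colour Agilent arrays, per the labels. Spot intensity was deposited as scanner output of Feature Extraction (version 10.7.1.1 in the file headers), and its background-subtracted processed signal was used. A deposited file of values per probe, on a log2 scale judged from the values (each column has a median of 3.873; scale, centring and direction are not stated, and it ranks probes as the processed signal does, Spearman 0.9997 or above), was an alternative only. The submitters' processing notes name Agilent Feature Extraction, RMA and Partek, with no roles.

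Control spots and outlier flags (0.113 to 0.406% per array) were left out, spots of a probe averaged, and log2 of the signal minus the array's 75th percentile taken (149 to 349 signal units). No spot was saturated. On each array 12.5 to 42.1% of processed signals were surrogates for low values. A probe was kept if 1 or more groups had it well above background on each of their 3 arrays (21960 of 41174), and the brightest stood for its gene name (15298). Names are the files' own, updated by RefSeq accession where 25097 probes matched.

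Group means were fitted with limma 3.58.1 (R 4.3.3, with the package data.table, version 1.17.8; figures with matplotlib 3.10.9), and a call meant p under 0.05 after Benjamini-Hochberg adjustment over all names. Errors are limma standard errors; exact permutation of 3 against 3 arrays cannot go below p = 0.1. The fit was run on simulated data with errors drawn independently for each array. That simulation leaves out the correlation within a slide, so it cannot show how the fit behaves under it. Deviations from group means correlated between times of a slide (0.52 to 0.787 in Tbc1d23, 0.183 to 0.559 in CAT) and not between the same numbers of the 2 lines (-0.411 to -0.073), so numbers pair times within a line through the slide, not the lines.

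The members and lists were chosen with earlier results of these data known. All members and all their probes are named; of each related list, every gene where 3 or fewer were tested, otherwise up to 3 of the called genes with the largest line difference at 5 h. A fold against a group not well above background is a lower bound, in which each dim array counts with its own signal or, if higher, with the dimmest signal that passed on that array. The within-slide responses and these bounds were added after seeing the data. A further motif that was searched is not reported here. Alternatives were other scalings, background correction, filters and probe rules, slide, run and replicate blocks, and leaving out arrays.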

Additional observations from a re-analysis of the deposited data

Results flagged for a closer look

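The response to LPS differed between the lines by limma's interaction test, which is the Tbc1d23 response minus the CAT response, for each of the 10 genes at 5 h and for 5 of them at 3 h. These are the same values as in the comparison of responses, gathered here because a difference between lines under 1 contrast is what a reader would want to look at again. At 5 h the difference in log2 response was -4.00 for Tap1, -2.55 for Tap2, -1.64 for Psmb9, -1.51 for Psmb10, -1.48 for Tapbp, -1.47 for Psmb8, -1.19 for Psme2, -1.09 for Psme1, -1.01 for B2m and -0.63 for Erap1. At 3 h it was -2.53 for Tap1, -0.75 for Tapbp, -0.70 for Psme2, -0.58 for Psmb8 and -0.47 for Psmb9. Groups of 3 arrays are too small for a check of single arrays that stand out.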

How the results depend on the processing

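Of 1637 member values under settings other than leaving out 1 array, 1531 kept their side of the threshold, 55 lost a call, 48 gained one and 3 reversed. A value called neither in the fit reported above nor under the setting counts as kept, even where its sign turned. Reversed means that the sign turned and that either fit called the value. Leaving out 1 array at a time gave 3120 values, of which 3080 kept their side of the threshold, 38 lost a call and 2 gained one. The counts of called members over these left-out arrays were 6 to 8 at 0 h, 6 to 7 at 1 h, 9 at 3 h and 9 to 10 at 5 h between the lines, 0 at each time in Tbc1d23, 0, 7 to 9 and 10 at 1, 3 and 5 h in CAT, and 0, 3 to 5 and 9 to 10 for the interaction at 1, 3 and 5 h. All-name counts for the fits without 1 array are not given here. Without the Tbc1d23 slide of replicate 3, 10 members were called between the lines at 3 h, Tap2 higher (0.68) and the others lower. In the interaction at 3 h 6 were called, all lower. Of all 15298 names, 4402 were then called higher and 4117 lower between the lines, and 1240 and 1346 in the interaction. With each array centred on its median, which moves the all-gene median by -0.56 at 0 h between the lines and by 0.59 and 0.31 in the interaction at 3 and 5 h, the counts were 3 between the lines at 1 h and 6 at 3 h, 2 in CAT at 3 h, and 1 at 3 h and 2 at 5 h in the interaction. Of all names, that centring called 1243 higher and 1874 lower between the lines at 1 h, and 2319 and 1909 at 3 h. In CAT at 3 h it called 1198 and 1194. In the interaction it called 738 higher and 381 lower at 3 h, and 784 and 584 at 5 h. There Psmb8 (0.0064) and Psmb9 (0.12) reversed in the interaction at 3 h by the construction of that scaling, which moves every gene alike. B2m (0.14), Psme1 (0.14) and Erap1 (0.38), called in neither fit, turned in sign too. Within the run that holds both lines, which has 1 Tbc1d23 array per time, the counts were 5 between the lines at 0 h, 4 at 1 h and 3 in the interaction at 3 h. Many other names were called within that run too. Since the counts there rest on 1 Tbc1d23 array per time, nothing is concluded from them. With the run as a block the interaction at 3 h had 9, and Tap2 reversed between the lines at 3 h (-0.76). This block called 1769 of all names higher and 1713 lower in that interaction. Without the filter on dim probes the interaction at 3 h had 3 members, where 946 of 28307 names were called higher and 1488 lower. It also had 3 members without Tbc1d23 replicate 1 at 3 h or CAT replicate 1 at 3 h. The cause of these changes was not tested beyond what the settings themselves fix.

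Pairing was tried as a replicate block. With a replicate block within each line, 2 members were called at 1 h, 2 at 3 h and 1 at 5 h in Tbc1d23, and 1 at 1 h and 9 at 3 h in the interaction. Of all 15298 names this block called 225 higher and 486 lower at 1 h in Tbc1d23. At 3 h it called 1255 and 1312 there, and at 5 h 1154 and 1208. In the interaction it called 308 higher and 543 lower at 1 h and 2292 and 2304 at 3 h. With a replicate block shared by both lines, 1 member was called at 1 h in Tbc1d23 and 1 in the interaction at 1 h. Of all names, 145 were called higher and 153 lower there in Tbc1d23, and 111 and 324 in the interaction. With the slide as a random block (correlation 0.568), 1, 2 and 1 members were called at 1, 3 and 5 h in Tbc1d23, and 1 at 1 h and 9 at 3 h in the interaction. Of all names it called 228 higher and 496 lower at 1 h in Tbc1d23. At 3 h it called 1226 and 1303 there, against 557 and 452 without a block, and at 5 h 1150 and 1219. In the interaction it called 325 higher and 592 lower at 1 h and 2298 and 2223 at 3 h. Quantile normalization and the deposited values each gave 1 member at 1 h in Tbc1d23 and 1 at 1 h in the interaction. Of all names, quantile normalization called 182 higher and 66 lower there in Tbc1d23, and 110 and 267 in the interaction. The deposited values gave 181 and 66, and 107 and 267.

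Over all names, the share of calls between the lines at 0 h that were higher was 55.8%, but 43.9% with quantile normalization and 18.1% with median centring. Probes near background carry little information, and up to 42.1% of signals on an array were surrogates. The background correction by normexp could be fitted on 18 arrays, and the other 6 took the median parameters of these, a choice made after seeing the data.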
